A study of Homo sapiens with 12 samples.

Results

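Transcript levels of 40 genes of DNA replication and mitosis were examined in MiaPaca2, an established human pancreatic ductal adenocarcinoma (PDAC) cell line, by RNA-seq. The genes come from a fixed list of cell cycle genes, found in the count tables through their Ensembl identifiers and the symbols of GENCODE v44, so that the rule uses no measured value, although the list was drawn up with earlier results of these data known. They are 17 S-phase genes (from the MCM helicase subunits to PCNA), 20 G2/M genes, and the 3 genes CCNE1, CCNE2 and E2F1 that act at the start of S phase. All 40 were found among the 63677 identifiers listed and all 40 passed the filter on low counts, as did 17123 genes in all.

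The cells, labelled WT, were treated for 24 h in 4 groups of 3 libraries each. Con cells received DMSO, the vehicle, and CPT cells received calcipotriol, a Vitamin D analog, at 1 µM. GTA+5-Aza cells were epigenetically primed with 2 mM glyceryl triacetate (GTA), an acetate precursor used to raise histone H3K27 acetylation, and 1 µM 5-Aza-2′-deoxycytidine (5-Aza), an inhibitor of DNA methyltransferases. CPT+GTA+5-Aza cells received all 3 compounds at these doses, so that no group received GTA or 5-Aza alone, and "priming" below always means both together. Every group is 1 established cell line, no synchronization of the cells is stated, and the labels do not say whether the 3 libraries of a group came from separate cultures, so a p-value measures the spread between these libraries only. The total count per library was 16162490 to 21224665. Of the markers of other cell types, those of acinar and endocrine pancreas were listed at 0, and no leukocyte or endothelial marker reached a mean of 1 CPM. The mesenchymal markers VIM and ZEB1 exceeded 1 CPM, whereas the mesenchymal marker CDH2 did not. The keratins were expressed, with KRT7 lowest at a mean of 1.29 CPM, whereas EPCAM and CDH1 were under 1 CPM. Of 5 fibroblast markers, 2 exceeded 1 CPM, and the 5 summed to 768 to 916 CPM in the 6 unprimed libraries and 927 to 1080 CPM in the 6 primed ones (COL1A1, DCN and PDGFRB were under 1 CPM); their part in the results below was not tested. Levels are given as CPM, counts scaled to a common library size with the TMM method.

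Replication genes and mitosis genes are transcribed in successive waves of the cell cycle. At the G1/S transition, E2F transcription factors, released from the retinoblastoma protein, raise cyclin E, the licensing factors that load the MCM helicase onto replication origins, and the enzymes that make deoxynucleotides. Before mitosis, the MuvB complex with B-MYB and FOXM1 activates the cyclins, kinases, kinesins and spindle checkpoint genes that act in G2 and M, often through a promoter element called the cell cycle genes homology region (CHR). In quiescent cells and after p53 and p21 activation, the same CHR is bound by the repressive DREAM complex. In a culture of unsynchronized cells, the level of such a gene depends on the share of cells in the phase and on the transcript per cell, and in these bulk libraries fewer cells in a phase and less RNA per cell cannot be told apart.

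The promoters of the members were compared with the letters of 3 elements, to show what separates the S-phase from the G2/M genes apart from their levels. RefSeq promoters on GRCh38.p14 (250 bases before to 50 bases after a start site) were found for 34 of the 40 members and for 19095 genes in all, and MCM4, MCM5, CCNE2, AURKA, TTK and FOXM1 were not matched. The CHR letters TTTGAA were present on either strand in 11 of 17 G2/M promoters (64.7%) and in 1 of 15 S-phase promoters (6.67%), against 12.8% of all promoters. An E2F core, searched on both strands as TTCCCGC, and also as TTGGCGC, as well as TTCGCGC, and finally as TTGCCGC, was present in 12 of 15 S-phase promoters (80%) and 3 of 17 G2/M promoters (17.6%), against 16.1% of all. The CCAAT box, searched as CCAAT on both strands, was frequent in both, in 12 of 15 S-phase promoters (80%) and 15 of 17 G2/M promoters (88.2%), against 36.2% of all. An E2F core of the form TTGGCGC, read on the other strand, can share letters with a CCAAT box. A match is a description of the sequence and not a site of binding.

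As examples, 5 of these promoters are printed here, the 250 bases before the start, 5′ to 3′ on the strand of the gene. CDT1 and TK1 are the S-phase genes, and CCNB1 and CENPE the G2/M genes, with the smallest p in the response to priming among those matched, and PLK1 was added after its values were seen as a promoter with a CHR. Capitals mark matches to an E2F core, a CCAAT box or a CHR. The windows are chr16:88803539-88803788, plus strand (CDT1), chr17:78187053-78187302, minus strand (TK1), chr5:69166900-69167149, plus strand (CCNB1), chr4:103198344-103198593, minus strand (CENPE) and chr16:23678639-23678888, plus strand (PLK1).
CDT1: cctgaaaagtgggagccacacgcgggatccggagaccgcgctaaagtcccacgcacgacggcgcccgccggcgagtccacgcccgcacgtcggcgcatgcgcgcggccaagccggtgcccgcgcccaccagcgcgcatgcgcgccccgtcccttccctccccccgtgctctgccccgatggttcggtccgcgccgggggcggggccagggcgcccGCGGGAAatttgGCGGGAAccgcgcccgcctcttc
TK1: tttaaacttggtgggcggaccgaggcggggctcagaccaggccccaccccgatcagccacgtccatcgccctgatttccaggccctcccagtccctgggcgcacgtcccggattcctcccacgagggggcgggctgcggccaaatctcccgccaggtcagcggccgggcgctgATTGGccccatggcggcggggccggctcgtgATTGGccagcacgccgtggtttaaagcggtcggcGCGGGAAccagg
CCNB1: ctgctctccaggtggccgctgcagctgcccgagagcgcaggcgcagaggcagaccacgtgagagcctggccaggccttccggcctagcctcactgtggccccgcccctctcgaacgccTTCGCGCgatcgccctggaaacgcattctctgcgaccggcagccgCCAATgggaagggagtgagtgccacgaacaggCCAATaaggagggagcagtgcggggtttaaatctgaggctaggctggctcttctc
CENPE: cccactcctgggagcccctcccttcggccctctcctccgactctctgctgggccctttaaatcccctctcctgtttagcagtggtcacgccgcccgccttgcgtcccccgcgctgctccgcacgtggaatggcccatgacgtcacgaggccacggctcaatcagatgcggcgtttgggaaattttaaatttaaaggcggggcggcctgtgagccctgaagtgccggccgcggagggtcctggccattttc
PLK1: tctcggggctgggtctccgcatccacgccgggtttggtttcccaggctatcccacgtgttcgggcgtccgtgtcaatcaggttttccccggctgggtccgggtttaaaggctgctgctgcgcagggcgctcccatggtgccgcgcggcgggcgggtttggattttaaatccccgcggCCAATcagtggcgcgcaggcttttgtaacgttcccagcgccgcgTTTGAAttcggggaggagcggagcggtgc

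CDT1 held a pair of adjacent E2F cores close to the start and neither other element. TK1 held 1 E2F core and 2 CCAAT boxes. In PLK1 a CCAAT box lay upstream of a CHR whose match began 29 bases before the start. CCNB1 held 2 CCAAT boxes and 1 E2F core but no CHR with these letters, and CENPE held none of the 3, so that the letters did not pick out every G2/M gene. Among G2/M genes, a CHR was present in 7 of 12 promoters of genes that fell with priming averaged over CPT (58.3%) and in 4 of 5 promoters of those that did not fall (80%), numbers too small to tell these shares apart.

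The members spanned a wide range of levels. Per kilobase of the canonical transcript, as a mean over the 12 libraries, MCM7 was highest at 315 CPM per kb, followed by the anaphase activator CDC20 at 259.6 CPM per kb, and TYMS and PCNA, at 201 and 201 CPM per kb. The lowest were CCNE2 at 7.71 and CCNE1 at 9.94 CPM per kb, the origin subunit ORC1 at 16.3 and the kinetochore motor CENPE at 17.6 CPM per kb. The 6 MCM subunits form a hexamer with 1 copy of each, yet their transcripts ranged from 45.6 CPM per kb for MCM5 and 68.0 for MCM6 to 315 CPM per kb for MCM7. For MCM7, 8.49% of the exon bases are shared with AP4M1 and MIR93, and the scale uses the length of 1 transcript per gene. MKI67, the proliferation antigen Ki-67, was at 1062 ± 40.9 CPM (SD, n = 3) in Con and 1036 ± 14.8 CPM (SD, n = 3) in CPT+GTA+5-Aza. Its log2 fold change was 0.03 ± 0.05 and -0.05 ± 0.05 in the 2 priming comparisons (adjusted p = 0.755 and 0.578, edgeR), with overlapping libraries in both.

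**Figure D1:**
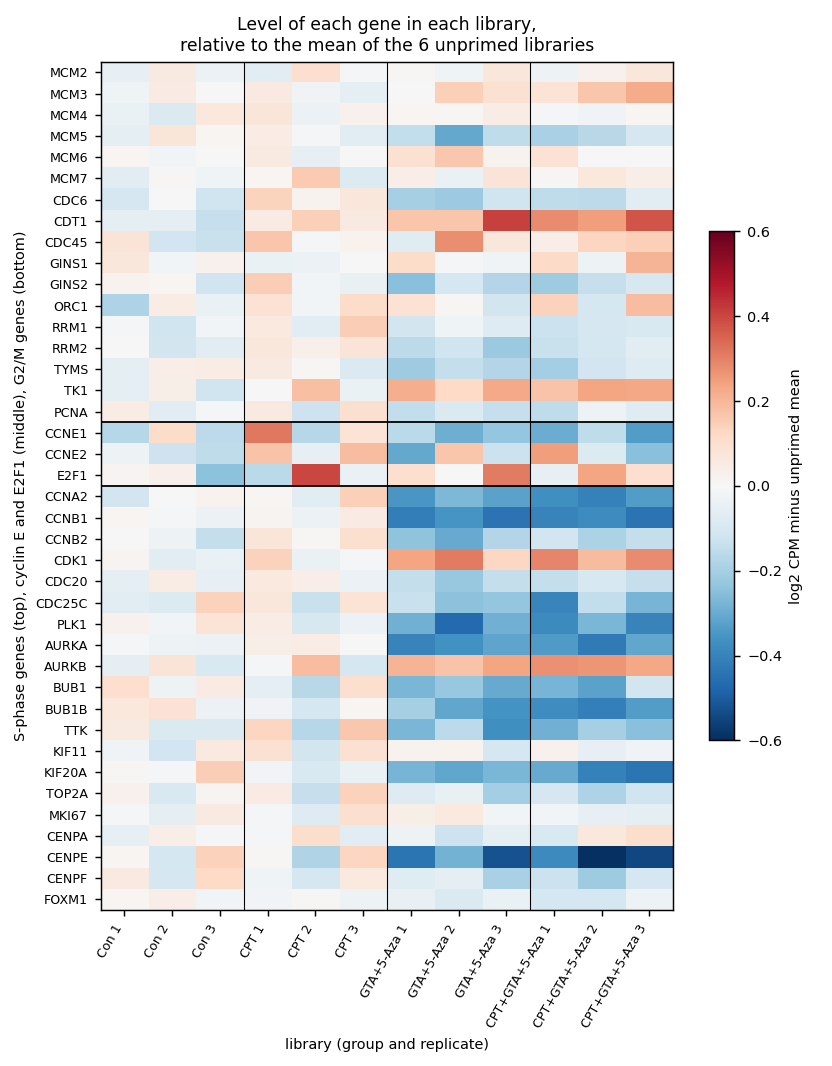
Level of each of the 40 genes (rows) in each of the 12 libraries (columns), as log2 CPM minus the gene's mean over the 6 unprimed libraries, with red above and blue below that mean. Most G2/M rows are blue in all 6 primed libraries, CDK1 and AURKB are red there, and the S-phase rows show no common direction.

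The mean level of the G2/M genes was lower in each primed library, while that of the S-phase genes overlapped. The mean log2 CPM over the 20 G2/M genes was 7.78 ± 0.02 in Con and 7.79 ± 0.05 in CPT, but 7.61 ± 0.02 in GTA+5-Aza and 7.60 ± 0.02 in CPT+GTA+5-Aza (SD, n = 3 each). Every primed library, at 7.58 to 7.62, lay below every unprimed one, at 7.73 to 7.82. The mean over the 17 S-phase genes was 7.57 ± 0.01 in Con, 7.63 ± 0.02 in CPT, 7.58 ± 0.01 in GTA+5-Aza and 7.61 ± 0.04 in CPT+GTA+5-Aza, and here primed and unprimed libraries overlapped.

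The S-phase mean less the G2/M mean was -0.21, -0.17 and -0.24 (log2) in the Con libraries, -0.16, -0.11 and -0.21 in CPT, -0.06, -0.03 and 0.004 in GTA+5-Aza, and -0.02, 0.01 and 0.04 in CPT+GTA+5-Aza. All 6 primed libraries were above all 6 unprimed ones, the nearest pair being -0.06 in GTA+5-Aza and -0.11 in CPT. This scale compares the same genes between libraries and says nothing of the amounts of S-phase and G2/M transcripts in one cell. It is given as a description, without a test over the lists.

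**Figure D2:**
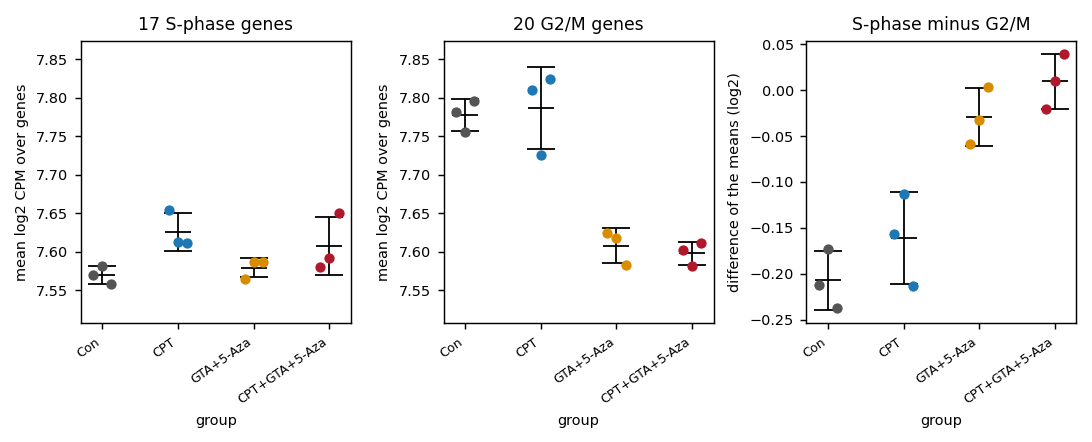
Mean log2 CPM over the 17 S-phase genes (left) and the 20 G2/M genes (middle), and their difference (right), for each library (points) with the group mean and SD (bars, n = 3); the axes do not start at 0. The G2/M mean is 7.73 to 7.82 in the unprimed and 7.58 to 7.62 in the primed libraries, while the S-phase mean stays at 7.56 to 7.65 in all 12.

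With priming, most of the members that changed were mitosis genes that fell. In GTA+5-Aza against Con, which asks what priming did in the absence of CPT, 12 of 40 members fell and 4 rose, where 7.53% of all genes fell and 9.95% rose. A gene is called here when its adjusted p is under 0.05, from the quasi-likelihood test of edgeR and the Benjamini-Hochberg procedure applied to all 17123 genes. By phase, 10 of 20 G2/M genes fell and 2 rose, 2 of 17 S-phase genes fell and 2 rose, and none of the 3 genes CCNE1, CCNE2 and E2F1 passed. In CPT+GTA+5-Aza against CPT, the same question in the presence of CPT and in separate libraries, 13 members fell and 4 rose, where 7.39% of all genes fell and 9.57% rose. There 11 of 20 G2/M genes fell and 2 rose, and 2 of 17 S-phase genes fell and 2 rose. The median log2 fold change of the G2/M genes was -0.19 without CPT and -0.20 with CPT, that of the S-phase genes 0.03 and 0.01, and that of all genes tested 0.01 in both. In these 2 comparisons the share of S-phase genes called was thus near that of all genes, and the share of G2/M genes that fell was above it. Averaged over CPT, 5 of 17 S-phase genes fell and 3 rose, where 14% of all genes fell and 16.8% rose.

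By library, 18 members were lower in all 3 GTA+5-Aza than in all 3 Con libraries and 5 were higher, where 16% and 18.1% of all genes were, and with CPT 17 were lower and 4 higher, where 14.4% and 16.4% of all genes were. The changes were small. No member had a fold change above 1.5 in either priming comparison, a rule that together with an unadjusted p under 0.05 held for 8.44% of all genes without CPT and 8.67% with CPT. In both comparisons 10 members fell, namely CCNB1, CCNB2, CCNA2, CDC20, PLK1, AURKA, BUB1, BUB1B, KIF20A and CENPE, and 3 rose in both, namely CDK1, AURKB and CDT1, where 4.95% of all genes fell and 6.73% rose in both. Of the remaining members, 7 passed in 1 comparison and 20 in neither. When averaged over CPT, with 6 primed against 6 unprimed libraries, 20 members fell and 5 rose, where 14% of all genes fell and 16.8% rose, and the 20 were 14 G2/M genes, 5 S-phase genes and CCNE1.

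**Figure D3:**
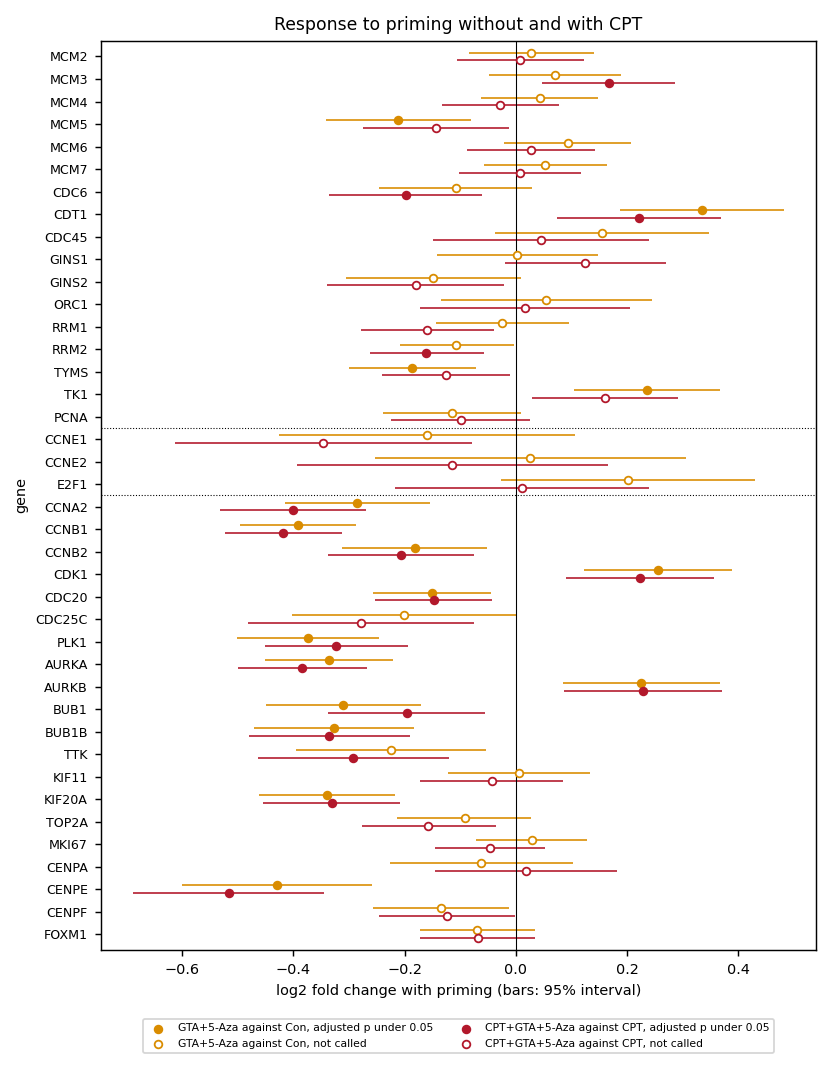
Log2 fold change with priming (x axis) for each gene (y axis) without CPT (GTA+5-Aza against Con, orange) and with CPT (CPT+GTA+5-Aza against CPT, red), with 95% intervals (bars) and filled points for an adjusted p under 0.05. CENPE lies furthest left at -0.43 and -0.52, CDT1, CDK1, AURKB and TK1 lie to the right, and no point reaches the log2 of a 1.5-fold change.

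Among the mitotic cyclins, all 3 fell while their kinase partner rose. CCNB1 (cyclin B1; ENSG00000134057, chr5:69167135-69178245) activates CDK1 at entry into mitosis and was at 428, 424 and 415 CPM in Con, 431, 415 and 440.4 CPM in CPT, 319, 333 and 313 CPM in GTA+5-Aza and 323, 327 and 313 CPM in CPT+GTA+5-Aza. Every primed library was below every unprimed one. Its level fell by 23.8% without CPT (log2 fold change -0.39 ± 0.05 SE, adjusted p = 4.65e-06, edgeR) and by 25.1% with CPT (-0.42 ± 0.05, adjusted p = 1.77e-06, edgeR). CCNA2 (cyclin A2; ENSG00000145386, chr4:121816444-121823883), the cyclin of S phase and G2, was at 177, 191 and 193 CPM in Con, 193, 182 and 211 CPM in CPT, 149.6, 158 and 153 CPM in GTA+5-Aza and 148, 144 and 151 CPM in CPT+GTA+5-Aza. Its primed and unprimed libraries were likewise apart, and it fell by 17.9% (-0.28 ± 0.06, adjusted p = 0.00225, edgeR) and 24.2% (-0.40 ± 0.06, adjusted p = 6.27e-05, edgeR), although the strand setting of the counting is not stated and 9.24% of its exon bases are shared with EXOSC9.

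CCNB2 (cyclin B2; ENSG00000157456, chr15:59105126-59125045), a second B-type cyclin, was at 142, 139.6 and 129 CPM in Con, 149.9, 143 and 152 CPM in CPT, 120.5, 115 and 126 CPM in GTA+5-Aza and 132, 125 and 129 CPM in CPT+GTA+5-Aza. The groups were apart within each comparison but met across them, since Con replicate 3 was below 2 of the CPT+GTA+5-Aza libraries. It fell by 11.8% without CPT (-0.18 ± 0.06, adjusted p = 0.0488, edgeR) and by 13.3% with CPT (-0.21 ± 0.06, adjusted p = 0.0253, edgeR). The call without CPT was marginal, since it was lost under 6 of 10 other settings and without any 1 of 9 libraries (adjusted p up to 0.172, edgeR), and the call with CPT was lost without CPT replicate 1 or 3 or any 1 of the 3 CPT+GTA+5-Aza libraries (adjusted p up to 0.114, edgeR). CDK1 (ENSG00000170312, chr10:60778331-60794852), the kinase that these cyclins activate, moved the other way and was at 156, 147 and 149.8 CPM in Con, 169.5, 149.98 and 153 CPM in CPT, 181, 191 and 168 CPM in GTA+5-Aza and 189, 176 and 187 CPM in CPT+GTA+5-Aza. It rose by 19.4% (0.26 ± 0.07, adjusted p = 0.00637, edgeR) and 16.7% (0.22 ± 0.07, adjusted p = 0.017, edgeR), the latter not being called without CPT replicate 3 or CPT+GTA+5-Aza replicate 1 or 3 (adjusted p up to 0.0761, edgeR). Cyclin A2 and B transcripts and that of their kinase thus changed in opposite directions in the same libraries.

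The mitotic kinases also split. PLK1 (polo-like kinase; ENSG00000166851, chr16:23677656-23690367) acts in centrosome maturation and mitotic entry and was at 241, 234 and 250.5 CPM in Con, 244, 222 and 231 CPM in CPT, 194, 171 and 194 CPM in GTA+5-Aza and 182, 196 and 179.6 CPM in CPT+GTA+5-Aza. Primed and unprimed libraries were apart, and it fell by 22.8% without CPT (-0.37 ± 0.06, adjusted p = 0.000117, edgeR) and 20.1% with CPT (-0.32 ± 0.06, adjusted p = 0.000624, edgeR), with 12.8% of its exon bases shared with ERN2 and another gene. AURKA (Aurora A; ENSG00000087586, chr20:56369389-56392337), a kinase of the spindle poles that activates PLK1, was at 212, 208 and 208 CPM in Con, 218, 219 and 212 CPM in CPT, 161, 165 and 171 CPM in GTA+5-Aza and 168, 158 and 171 CPM in CPT+GTA+5-Aza. Its 6 unprimed libraries lay within a narrow range above its 6 primed ones, and it fell by 20.8% (-0.34 ± 0.06, adjusted p = 0.000125, edgeR) and 23.4% (-0.38 ± 0.06, adjusted p = 2.39e-05, edgeR).

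AURKB (Aurora B; ENSG00000178999, chr17:8204733-8210600), the catalytic subunit of the chromosomal passenger complex at centromeres, was at 138, 150.2 and 134 CPM in Con, 141, 162 and 133 CPM in CPT, 164, 161 and 168 CPM in GTA+5-Aza and 173, 171 and 167 CPM in CPT+GTA+5-Aza. Apart from CPT replicate 2, all primed libraries were above all unprimed ones, and it rose by 16.9% (0.23 ± 0.07, adjusted p = 0.0232, edgeR) and 17.2% (0.23 ± 0.07, adjusted p = 0.0217, edgeR). Each of these calls was lost without any 1 of 4 libraries, namely Con replicate 1 or 3 or GTA+5-Aza replicate 1 or 3 without CPT (adjusted p up to 0.131, edgeR), and CPT or CPT+GTA+5-Aza replicate 1, CPT replicate 3 or CPT+GTA+5-Aza replicate 2 with CPT (adjusted p up to 0.123, edgeR). CDC25C, the phosphatase that activates CDK1, had log2 fold changes of -0.20 ± 0.10 and -0.28 ± 0.10, which did not pass (adjusted p = 0.171 and 0.0523, edgeR), but it fell when priming was averaged over CPT (-0.24 ± 0.07, adjusted p = 0.00938, edgeR).

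The genes of the spindle checkpoint, which delays anaphase until chromosomes are attached, fell in part. BUB1B (BubR1; ENSG00000156970, chr15:40161023-40221123), a subunit of the mitotic checkpoint complex, was at 104, 106 and 96.7 CPM in Con, 97.8, 92.2 and 99.9 CPM in CPT, 86.3, 80.0 and 77.5 CPM in GTA+5-Aza and 76.5, 74.5 and 78.7 CPM in CPT+GTA+5-Aza. No primed library reached the lowest unprimed one, and it fell by 20.3% (-0.33 ± 0.07, adjusted p = 0.0016, edgeR) and 20.7% (-0.34 ± 0.07, adjusted p = 0.00142, edgeR), with 10.2% of its exon bases shared with BUB1B-PAK6 and PAK6. BUB1 (ENSG00000169679, chr2:110637528-110678063), the kinase that recruits BubR1 to kinetochores, was at 237, 216 and 228 CPM in Con, 212, 197 and 236 CPM in CPT, 182, 188 and 179 CPM in GTA+5-Aza and 182, 177 and 205 CPM in CPT+GTA+5-Aza. It fell by 19.3% without CPT (-0.31 ± 0.07, adjusted p = 0.00199, edgeR) and by 12.7% with CPT (-0.20 ± 0.07, adjusted p = 0.0474, edgeR), where the libraries overlapped and the call was lost under 4 of 10 other settings and without any 1 of 8 libraries (adjusted p up to 0.23, edgeR).

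TTK (MPS1; ENSG00000112742, chr6:80003887-80042527), the kinase at the head of the checkpoint, was at 96.5, 87.6 and 87.5 CPM in Con, 102, 82.6 and 104 CPM in CPT, 76.9, 83.5 and 72.0 CPM in GTA+5-Aza and 76.1, 81.0 and 78.2 CPM in CPT+GTA+5-Aza. With priming in the presence of CPT it fell by 18.3% (-0.29 ± 0.08, adjusted p = 0.0156, edgeR), a call lost without CPT or CPT+GTA+5-Aza replicate 1 or 3 (adjusted p up to 0.0846, edgeR). Without CPT its log2 fold change of -0.22 ± 0.08 did not pass (adjusted p = 0.0642, edgeR), and it passed without CPT replicate 2 or 3 or GTA+5-Aza replicate 2 (lowest adjusted p = 0.0175, edgeR). CDC20, which the checkpoint holds back from the anaphase-promoting complex, was at 444 ± 17.9 CPM in Con, 457 ± 15.2 CPM in CPT, 399.6 ± 13.5 CPM in GTA+5-Aza and 412 ± 7.15 CPM in CPT+GTA+5-Aza (SD, n = 3 each). Its fall was the smallest of those called in both comparisons, at -0.15 ± 0.05 and -0.15 ± 0.05 (log2; adjusted p = 0.0425 and 0.0489, edgeR). Both calls of CDC20 lay near the threshold, and whether they hold when single libraries are left out was not examined.

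Of the motors, 2 of 3 fell. CENPE (ENSG00000138778, chr4:103105349-103198445), a kinesin that moves chromosomes to the metaphase plate, was at 176, 162 and 192 CPM in Con, 175, 154 and 191 CPM in CPT, 129, 143 and 121 CPM in GTA+5-Aza and 134, 110.1 and 119 CPM in CPT+GTA+5-Aza. It had the largest fold change of all 40 members in both comparisons, a fall by 25.7% (-0.43 ± 0.08, adjusted p = 0.00061, edgeR) and 30.1% (-0.52 ± 0.08, adjusted p = 8.15e-05, edgeR), and its highest primed library was below its lowest unprimed one. KIF20A (ENSG00000112984, chr5:138178719-138187723), a kinesin of the central spindle and cytokinesis, was at 224, 222 and 247 CPM in Con, 220.3, 209 and 216 CPM in CPT, 184, 179 and 184 CPM in GTA+5-Aza and 181, 168 and 164 CPM in CPT+GTA+5-Aza. It too was lower in each primed library, and fell by 21.0% (-0.34 ± 0.06, adjusted p = 0.000202, edgeR) and 20.5% (-0.33 ± 0.06, adjusted p = 0.000288, edgeR), with 5.35% of its exon bases shared with BRD8 and CDC23. KIF11 (Eg5), the kinesin that separates the spindle poles, had log2 fold changes of 0.01 ± 0.06 and -0.04 ± 0.06 (adjusted p = 0.968 and 0.709, edgeR), with 95% intervals of -0.12 to 0.13 and -0.17 to 0.09.

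The G2/M genes of chromosomes and chromatin were closer to no change. The log2 fold changes without and with CPT were -0.14 and -0.12 for the kinetochore protein CENPF, -0.09 and -0.16 for topoisomerase TOP2A, and -0.06 and 0.02 for the centromeric histone CENPA, and none of these passed. FOXM1, the transcription factor of the G2/M program, was at -0.07 and -0.07, with 15.9% of its exon bases shared with ITFG2. Its 6 primed libraries were all below its 6 unprimed ones, but by so little that the average over CPT did not pass (-0.07 ± 0.04, adjusted p = 0.151, edgeR). Averaged over CPT, CENPF (-0.13 ± 0.04, adjusted p = 0.0207, edgeR) and TOP2A (-0.12 ± 0.04, adjusted p = 0.0226, edgeR) fell.

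The 7 genes CCNB1, CCNA2, PLK1, AURKA, BUB1B, KIF20A and CENPE passed in both priming comparisons under each of the 10 other settings and each of the 12 fits that left out 1 library. The 10 settings do not include the 1.5-fold rule, which no member met. All 7 are G2/M genes that fell.

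Among the S-phase genes, the licensing factors diverged. CDT1 (ENSG00000167513, chr16:88803789-88809258), which brings the MCM helicase to origins, was at 101, 101 and 95.3 CPM in Con, 109, 116 and 109 CPM in CPT, 118, 118 and 139 CPM in GTA+5-Aza and 127, 125 and 136 CPM in CPT+GTA+5-Aza. It was higher in each primed than in each unprimed library, and rose by 26.1% without CPT (0.34 ± 0.07, adjusted p = 0.00158, edgeR) and 16.6% with CPT (0.22 ± 0.07, adjusted p = 0.0326, edgeR). The call with CPT was lost without CPT replicate 1 or 3 or any 1 of the 3 CPT+GTA+5-Aza libraries (adjusted p up to 0.154, edgeR), and both were lost when each library's trend with GC content was removed (below). CDC6, its partner in loading the helicase, was at 99.1, 106 and 97.7 CPM in Con, 116, 108 and 111 CPM in CPT, 92.5, 91.3 and 97.6 CPM in GTA+5-Aza and 95.6, 95.2 and 101 CPM in CPT+GTA+5-Aza. It fell with priming in the presence of CPT (-0.20 ± 0.07, adjusted p = 0.0427, edgeR) and did not pass in the absence of CPT (-0.11 ± 0.07, adjusted p = 0.303, edgeR). ORC1, the origin recognition subunit that varies through the cycle, was at 0.06 and 0.02 (log2 fold change, not called).

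The MCM subunits did not move together. MCM5 fell without CPT (-0.21 ± 0.06, adjusted p = 0.0206, edgeR), had -0.14 ± 0.06 with CPT (adjusted p = 0.127, edgeR), and was at 161, 176 and 169 CPM in Con, 173, 166 and 160.03 CPM in CPT, 151, 135 and 150.3 CPM in GTA+5-Aza and 146, 149 and 156 CPM in CPT+GTA+5-Aza, with each primed library below each unprimed one. With priming, MCM3 had 0.07 ± 0.06 in the absence of CPT (adjusted p = 0.463, edgeR) and rose in the presence of CPT (0.17 ± 0.06, adjusted p = 0.0467, edgeR). The call of MCM3 was lost without CPT replicate 3, where no member was called higher. MCM2, MCM4, MCM6 and MCM7 passed in neither, with log2 fold changes from -0.03 (MCM4 with CPT) to 0.09 (MCM6 without CPT), and 23.6% of the exon bases of MCM2 are shared with another gene. The subunits that join MCM in the active helicase did not pass in either comparison, CDC45 at 0.15 and 0.04, GINS1 at 0.00 and 0.12, and GINS2 at -0.15 and -0.18, although GINS2 fell in the average over CPT (-0.16 ± 0.05, adjusted p = 0.0225, edgeR).

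Genes of nucleotide supply went both ways. TK1 (thymidine kinase; ENSG00000167900, chr17:78174091-78187233), which salvages thymidine, was at 186, 198 and 178 CPM in Con, 193, 219.5 and 188 CPM in CPT, 225, 210.3 and 226 CPM in GTA+5-Aza and 218, 228 and 227 CPM in CPT+GTA+5-Aza. It rose by 17.8% without CPT (0.24 ± 0.06, adjusted p = 0.0103, edgeR), though not without Con replicate 3 or GTA+5-Aza replicate 1 (adjusted p up to 0.0817, edgeR), and had 0.16 ± 0.06 with CPT (adjusted p = 0.0837, edgeR), where CPT replicate 2 lay among the primed libraries and the call was made without it (adjusted p = 0.00674, edgeR). TYMS, thymidylate synthase of the de novo route, moved the opposite way, at 343 ± 13.7 CPM in Con and 302 ± 7.13 CPM in GTA+5-Aza (SD, n = 3 each), a fall of -0.19 ± 0.06 (log2; adjusted p = 0.0205, edgeR). With CPT it was at -0.12 ± 0.06 (adjusted p = 0.128, edgeR), and 47.9% of its exon bases are shared with ENOSF1 and TYMSOS, so that its counts are uncertain.

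RRM2, the regulated subunit of ribonucleotide reductase, fell with priming in the presence of CPT (-0.16 ± 0.05, adjusted p = 0.0265, edgeR). With priming in the absence of CPT it had -0.11 ± 0.05 (adjusted p = 0.151, edgeR). RRM1, the larger subunit of the reductase, was at -0.02 and -0.16 without and with CPT, and the sliding clamp PCNA at -0.12 and -0.10, without a call.

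Among the genes at the entry to S phase, CCNE1 and CCNE2 had low counts, at most 474 and 470 in any library, against 2201 for E2F1. The median SE of these 3 genes was 0.13 without CPT, against 0.061 for the S-phase genes. CCNE1 (cyclin E1), a target and activator of the G1/S switch, was at 18.6, 22.6 and 18.8 CPM in Con, 26.1, 18.6 and 22.2 CPM in CPT, 18.8, 17.1 and 17.8 CPM in GTA+5-Aza and 17.1, 18.8 and 16.6 CPM in CPT+GTA+5-Aza. It fell in the average over CPT (-0.25 ± 0.09, adjusted p = 0.0369, edgeR), with overlapping libraries, but not in either comparison alone (adjusted p = 0.457 and 0.0675, edgeR). CCNE2, its paralog, was at 0.03 and -0.11, with 37.1% of its exon bases shared with other genes, among them INTS8. E2F1 was at 0.20 and 0.01, and its libraries ranged widely within groups, from 73.2 to 108 CPM in CPT.

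The log2 fold changes with priming were close without and with CPT, and their largest difference was 0.19, for E2F1. The 2 comparisons share no library, and across the 40 members their log2 fold changes had a Pearson r of 0.924 and a Spearman rho of 0.92 (0.858 and 0.828 over S-phase genes, 0.958 and 0.938 over G2/M genes). These are correlations across genes, which are not independent replicates, and the libraries of a treatment may share its preparation. The interaction of CPT and priming, the test of the difference itself, called no member (0 of 40 at an adjusted p under 0.05, and 0 at an unadjusted p under 0.05, where 2.63% of all genes had one; edgeR), and the smallest unadjusted p of a member in that edgeR fit was 0.1117, for RRM1.

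Taken library by library, 10 members were lower in all 6 primed than in all 6 unprimed libraries, namely MCM5, CCNA2, CCNB1, CDC20, PLK1, AURKA, BUB1B, KIF20A, CENPE and FOXM1, where 6.81% of all genes were. CDT1 alone of the members was higher in all 6, where 8.04% of all genes were.

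The changes with priming also went with the GC content of the transcripts. Over all genes tested, the median log2 fold change with priming averaged over CPT was -0.08, -0.05, -0.01, 0.07 and 0.16 in 5 bins of equal size, from the genes lowest to those highest in GC. The median GC content was 43.8% for the G2/M genes and 48.9% for the S-phase genes, and CDT1 (64.3%) and TK1 (60.3%) were in the highest bin, whereas CENPE (35.1%) was in the lowest. When each library's trend with GC was removed, the rise of CDT1 averaged over CPT was 0.10 ± 0.04 (adjusted p = 0.0789, edgeR) and that of TK1 0.06 ± 0.03 (adjusted p = 0.176, edgeR), so that both calls were lost, as were those of TOP2A and CENPF.

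The falls of the mitotic cyclins, PLK1, AURKA, BUB1, BUB1B, TTK, KIF20A and CENPE averaged over CPT were still called after this removal. PLK1, with 57.1% GC, fell by more after the removal (-0.45 ± 0.04, adjusted p = 2.99e-10, edgeR), and CDC20, with 56.9% GC, as well (-0.25 ± 0.03, adjusted p = 5.88e-08, edgeR). CENPE (-0.39 ± 0.04) and CCNB1 (-0.35 ± 0.03) fell by less, and CDK1, with 35.4% GC, rose by more (0.32 ± 0.04, adjusted p = 2.72e-08, edgeR). FOXM1 was then called lower (-0.15 ± 0.03, adjusted p = 0.0002, edgeR). Of the members called with priming averaged over CPT, 21 were called before and after the removal, all in the same direction, and 4 only before and 4 only after. After it, 13 G2/M genes fell and 2 rose, where 17.3% of all genes fell and 16.3% rose, and 6 S-phase genes fell and 3 rose.

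**Figure D4:**
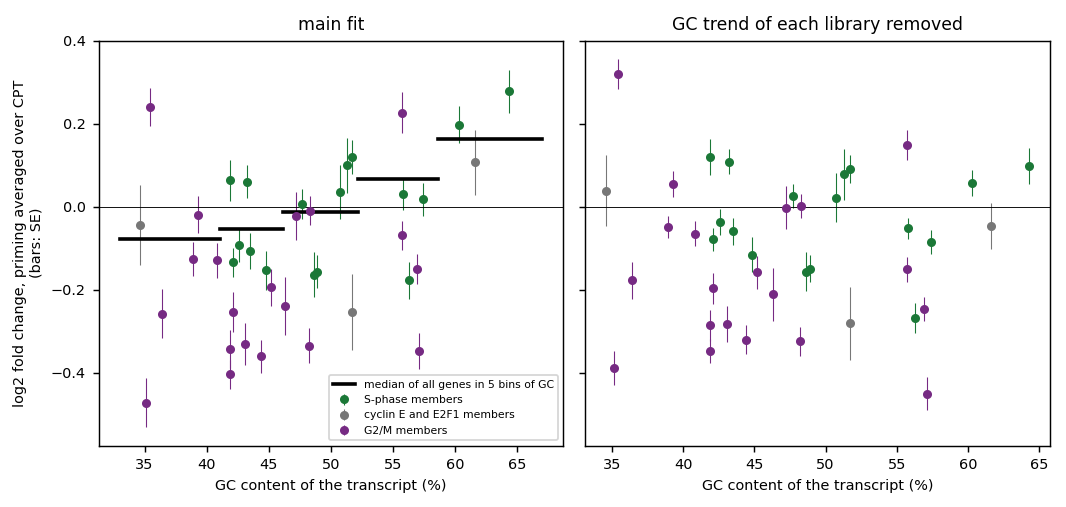
Log2 fold change with priming averaged over CPT (y axis, bars SE) against the GC content of the transcript (x axis) for S-phase genes (green), cyclin E and E2F1 (grey) and G2/M genes (purple), in the fit as reported (left, black lines the medians of all genes in 5 bins of GC) and with each library's GC trend removed (right). The black lines rise from -0.08 to 0.16, the green points at the highest GC (CDT1 and TK1) move towards 0 on the right, and most purple points stay below 0 in both panels.

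CPT changed no member by the adjusted test. In CPT against Con, which asks what the Vitamin D analog did in unprimed cells, 0 of 40 members passed at an adjusted p under 0.05, as did 0% of all genes, and DESeq2 called 0 as well. At an unadjusted p under 0.05 in the same edgeR fit 3 members were higher and none lower, where 4.28% of all genes differed. The 3 were RRM2 (0.12 ± 0.05 log2), CDT1 (0.17 ± 0.07) and CDC6 (0.14 ± 0.07), which are all S-phase genes. RRM2 was at 503, 467 and 480.4 CPM in Con and 527, 515 and 532 CPM in CPT, CDT1 at 101, 101 and 95.3 and 109, 116 and 109 CPM, and CDC6 at 99.1, 106 and 97.7 and 116, 108 and 111 CPM. In each case every CPT library was above every Con library, but each of the 3 had an adjusted p of 1 (edgeR). Members were apart in this way in 6 cases, 5 higher and 1 lower, where 3.81% of all genes were higher and 4.21% lower.

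In primed cells, CPT+GTA+5-Aza against GTA+5-Aza, again 0 of 40 members passed (0% of all genes; DESeq2 called 0), and none had an unadjusted p under 0.05 in the edgeR fit, where 2.71% of all genes had one. The smallest p belonged to KIF20A (-0.09 ± 0.06), CCNB2 (0.09 ± 0.06) and MCM3 (0.08 ± 0.06), with overlapping libraries and an adjusted p of 1 each (edgeR). The libraries of these genes under CPT are given above for KIF20A and CCNB2, and MCM3 was at 246, 272 and 263 CPM in GTA+5-Aza and 261, 277 and 288 CPM in CPT+GTA+5-Aza. CDT1, RRM2 and CDC6 had 0.05 ± 0.07, 0.06 ± 0.05 and 0.06 ± 0.07 there.

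The intervals limit how large a response to CPT can be. Over the 40 members the 95% intervals of the log2 fold change ran at most from -0.22 (KIF20A) to 0.48 (CCNE2) in unprimed and from -0.30 (CCNE1) to 0.35 (CCNE2) in primed cells, that is, from 0.857-fold to 1.4-fold and from 0.811-fold to 1.27-fold. A change of 1.5-fold lay outside the interval of every member in both. The median log2 fold change was 0.06 for S-phase and 0.02 for G2/M genes without priming, and 0.04 and -0.005 after priming, where that of all genes was 0.002 and 0.001. Averaged over priming, 0 of 40 members passed, where 0.00584% of all genes rose, with an unadjusted p under 0.05 for 4 higher and 1 lower in the edgeR fit, where 4.51% of all genes had one.

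**Figure D5:**
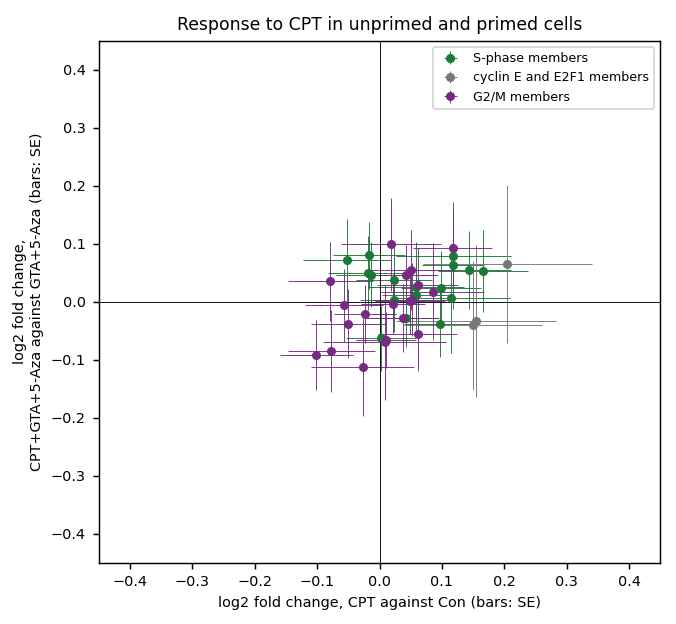
Log2 fold change with CPT in unprimed cells (x axis) against that in primed cells (y axis) for the S-phase genes (green), cyclin E and E2F1 (grey) and G2/M genes (purple), with SE bars. All points lie from -0.11 to 0.21 on both axes, and no member was called in either comparison.

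The full combination was compared with the vehicle through libraries that the comparisons above share. In CPT+GTA+5-Aza against Con, 9 of 40 members fell, all of them G2/M genes, and 4 rose, where 7.16% of all genes fell and 9.62% rose. CCNB1 had -0.40 ± 0.05, CENPE -0.54 ± 0.08, AURKA -0.33 ± 0.06 and KIF20A -0.43 ± 0.06 (log2, all called). CDT1 had the largest rise of the members, 0.39 ± 0.07 (adjusted p = 0.000371, edgeR).

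Genes of the same pathways outside the 40 gave the setting. Of 36 further G2/M genes, 14 fell and 3 rose without CPT, where 7.53% of all genes fell and 9.95% rose. With CPT, 14 fell and 1 rose, where 7.39% of all genes fell and 9.57% rose. The medians were -0.15 and -0.20 (log2), and 12 genes fell in both, where 4.95% of all genes did. TPX2, the spindle assembly factor that activates Aurora A, was at 604, 569 and 618 CPM in Con, 651, 584 and 634 CPM in CPT, 458, 463 and 463 CPM in GTA+5-Aza and 478, 462 and 476 CPM in CPT+GTA+5-Aza. It fell by 22.7% and 24.2% (adjusted p = 1.10e-05 and 3.78e-06, edgeR), with primed and unprimed libraries apart. ANLN, the anillin of the cytokinetic ring (-0.35 ± 0.06 and -0.38 ± 0.06), KIF4A, a chromosome-bound kinesin (-0.35 ± 0.06 and -0.36 ± 0.06), and DLGAP5, a spindle protein (-0.40 ± 0.07 and -0.42 ± 0.07), fell in both comparisons as well.

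Of 37 further S-phase genes tested, 1 rose and 3 fell without CPT, where 9.95% of all genes rose and 7.53% fell. With CPT, 2 rose and 2 fell, where 9.57% of all genes rose and 7.39% fell. The medians were -0.004 and -0.02 (log2), and none passed in both, where 6.73% of all genes rose and 4.95% fell in both. The 4 with the smallest p without CPT were the GINS subunit GINS4 (-0.28 ± 0.07), the origin subunit ORC3 (-0.33 ± 0.09) and the catalytic subunit of polymerase alpha, POLA1 (-0.24 ± 0.08), which fell, and that of polymerase delta, POLD1 (0.29 ± 0.08), which rose. With CPT these were at -0.18, -0.24, -0.17 and 0.22 and did not pass. The pattern of the 40 members, in which G2/M genes fell and S-phase genes showed no common direction, was thus also that of these longer lists, which were chosen with earlier results of these data known.

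The regulators of the cycle included the largest change. CDKN1A, which encodes the CDK inhibitor p21, was at 0.841, 0.334 and 0.438 CPM in Con, 0.660, 1.03 and 0.273 CPM in CPT, 5.29, 4.01 and 2.03 CPM in GTA+5-Aza and 3.49, 3.75 and 5.69 CPM in CPT+GTA+5-Aza. It did not overlap between unprimed and primed libraries, with a log2 fold change of 2.81 ± 0.45 without CPT (adjusted p = 6.55e-05, edgeR) and 2.69 ± 0.44 with CPT (adjusted p = 8.42e-05, edgeR), from a highest count of 99 in any library. RB1, the retinoblastoma protein that restrains E2F, fell (-0.50 ± 0.09 and -0.29 ± 0.09), and MYBL1, a MYB factor related to B-MYB, fell (-0.39 ± 0.08 and -0.50 ± 0.08). MYBL2, which encodes B-MYB itself, did not fall. It was 11.7% higher without CPT and 8.985% higher with CPT, and was not called in both comparisons. PKMYT1, a kinase that inhibits CDK1, rose (0.36 ± 0.08 and 0.34 ± 0.08), as did CCND1, cyclin D1 (0.21 ± 0.05 and 0.21 ± 0.05). E2F7, a repressive E2F, rose without CPT (0.42 ± 0.12, adjusted p = 0.0117, edgeR) and did not pass with it (0.26 ± 0.12, adjusted p = 0.1249, edgeR). E2F2, another E2F factor, was called higher in both comparisons, by 23.4% without CPT and 27.7% with CPT. Of the 32 regulators tested, 6 rose and 4 fell without CPT and 5 rose and 3 fell with CPT, where 9.95% and 9.57% of all genes rose and 7.53% and 7.39% fell.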

How the data were processed

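RNA-seq of 12 MiaPaca2 libraries was used. Per the submitters' processing notes, reads were trimmed (Trim Galore), mapped to GRCh38 (HISAT2 2.2.1) and assigned to genes (HTSeq). The authors deposited whole-number counts for each gene, not normalized. The annotation release and strand setting are not given in the sources used here. GENCODE v44 named 52181 of the 63677 identifiers, which hold 99.047% of the counts. Rows other than Ensembl genes held 0% of the counts, so the share of reads left unassigned is not known. Genes overlapping others on either strand are uncertain, since the strand setting is not given.

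The analysis used edgeR 4.0.16 under R 4.3.3 (filterByExpr, TMM, glmQLFit and glmQLFTest), in 1 fit of 12 libraries and 4 group means, which tested 17123 genes. The common dispersion was 0.0101, and p-values were adjusted over all genes tested by Benjamini-Hochberg. Depth was 16162490 to 21224665 counts per library. GC content, length and start sites are those of the Ensembl canonical transcript. Replicates of a group differed by 3.88 to 16.6 chi-square per degree of freedom over genes, so no library was a repeat of another. The test was checked on simulated data.

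Members given in full are those with an adjusted p under 0.05 in a priming comparison, at most 14 by the smallest p averaged over CPT, and the 3 with the smallest p in each CPT comparison. From each further list, the 4 genes with the smallest p in GTA+5-Aza against Con were named, plus CDKN1A, CCND1 and E2F7. MYBL2 and E2F2 were added after their values were seen. The members, lists and tests were chosen with earlier results of these data known. Other members are named where their role is described. Alternatives were DESeq2 1.42.0, the likelihood ratio test, other scalings and filters, only the compared groups in the fit, the study's fold and P thresholds, removal of each library's GC trend, a replicate block, and leaving out each library.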

Additional observations from a re-analysis of the deposited data

How the results depend on the processing

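For the 14 members given in full, 10 alternatives and the 12 fits without 1 library changed no direction in either priming comparison. Of 308 such values in GTA+5-Aza against Con, 23 lost the call and 5 gained it, and of 308 in CPT+GTA+5-Aza against CPT, 35 lost it and 2 gained it. When a call needed a 1.5-fold change and P under 0.05 before adjustment, 0 members were higher or lower in either priming comparison. With total counts as library size, 8 members in place of 13 were lower in CPT+GTA+5-Aza against CPT. Removal of each library's GC trend took the S-phase median less the G2/M median (log2 fold change) in CPT+GTA+5-Aza against CPT from 0.209 to 0.138.

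Leaving out each library in turn gave 2 to 4 members higher and 9 to 13 lower in GTA+5-Aza against Con, with 2 higher without Con replicate 3 or GTA+5-Aza replicate 1. In CPT+GTA+5-Aza against CPT it gave 0 to 4 higher (0 without CPT replicate 3, and 1 without CPT replicate 1 or any 1 of the CPT+GTA+5-Aza libraries) and 7 to 19 lower (7 without CPT replicate 1 or CPT+GTA+5-Aza replicate 1, and 8 without CPT+GTA+5-Aza replicate 3). The S-phase median less the G2/M median was 0.181 to 0.228 without CPT (0.181 without Con replicate 1) and 0.155 to 0.225 with CPT (0.155 without CPT replicate 3 and 0.168 without CPT+GTA+5-Aza replicate 2). For CPT this difference was 0.026 to 0.058 in unprimed and 0.026 to 0.066 in primed cells, and no alternative called a member there. The cause of these shifts was not tested.

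The replicate numbers did not pair the libraries across all 4 groups. Same-numbered libraries had correlations of their deviations from -0.524 to 0.564, with 6 of 18 pairs over 0.1. Among Con, CPT and CPT+GTA+5-Aza the same-numbered pairs were all positive (0.008 to 0.564), and every negative one involved GTA+5-Aza. Different-numbered libraries had -0.516 to 0.494, with 12 of 36 over 0.1. Libraries of different groups and numbers thus moved together in part, such as CPT replicate 2 and GTA+5-Aza replicate 3 (0.494). A block of replicate numbers does not model this, and its cause was not tested. With the replicate number as a block, 4 members were higher and 10 lower in GTA+5-Aza against Con, and 3 higher and 11 lower in CPT+GTA+5-Aza against CPT, with differences of the medians of 0.219 and 0.21, and of 0.036 and 0.042 for CPT. At this depth and number of libraries the smallest change of a member called in a priming comparison was that of CDC20, at -0.15 (log2), and changes of up to -0.35, for CCNE1 with CPT, were not called.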
